A study of Mus musculus with 8 samples.

Results

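The genes described here encode the core of the RAS to ERK signalling cascade: the kinases Braf and Araf, the GTPase Nras, and the kinases Map2k1 (MEK1) and Map2k2 (MEK2). A list of 7 symbols was looked up in the platform's probe annotation, which names a probe set of its own for 5 of them, out of 12393 genes in all. Hras and Mapk3 (ERK1) belong to the list and were not analysed here. RefSeq places the 5 genes in build GRCm38.p6 as follows: Braf at chr6:39603231-39725658, Araf at chrX:20797707-20860521, Nras at chr3:103058285-103067914, Map2k1 at chr9:64185769-64253605, Map2k2 at chr10:81105913-81124697. RNA was measured on 8 Affymetrix arrays, 6 of primary soft tissue sarcomas and 2 of normal muscle from a hind limb that bore no tumour. All 8 carried the genotype p53 Fl/Fl, and either 2 copies of the conditional BrafCa allele (Ca/Ca: 4 sarcomas and 1 muscle) or 1 copy (Ca/+: 2 sarcomas and 1 muscle). Tumours were started by injecting an adenovirus that expresses Cre recombinase. Which cells took up the virus, and the age of the mice, are not given in the labels. The design sets the sarcomas against the muscles, and the titles also allow Ca/Ca sarcomas to be set against Ca/+ sarcomas.

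In this cascade a RAS protein loaded with GTP recruits a RAF kinase to the membrane, RAF phosphorylates MEK, and MEK phosphorylates ERK. ERK then acts on transcription factors, on other kinases and on inhibitors of its own pathway. The conditional Braf allele encodes normal BRAF before Cre acts on it and a permanently active BRAF afterwards. The proteins are controlled mainly by GTP loading and phosphorylation, which RNA arrays do not measure.

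The values are log2 expression per probe set after RMA, so a difference of 1 is a 2-fold change. Array medians lay between 5.79 and 5.90. Across all genes Pearson's r was 0.968 between the muscles, 0.940 to 0.983 between sarcomas and 0.8595 to 0.932 between a sarcoma and a muscle. All 14 skeletal muscle markers fell in sarcoma, with list means of 6.58 to 8.79 in sarcomas and 12.60 to 12.68 in muscles, as the tissue labels would have it. As a scale for the dim end of the arrays, 31 olfactory receptor genes, expected in neither tissue, had a median level of 2.92 and a 95th percentile of 3.95. In bulk samples like these, fewer cells of a type and less RNA per cell cannot be told apart.

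None of the 5 measured genes passed the test between sarcoma and muscle (0 of 5 at an adjusted p under 0.05, limma over all genes), while 26.3% of all genes did. The differences were 0.20 for Braf, 0.01 for Araf, 0.23 for Nras, 0.25 for Map2k1 and 0.17 for Map2k2 on the log2 scale. Their median was 0.20, against 0.03 over all genes, 0.12 without the dimmest 25% of genes and 0.20 without the dimmest 50%. The 95% intervals of these differences, given as folds of sarcoma over muscle, ran from 0.827 (Araf) to 1.68 (Map2k1). In this fit, a 2-fold change of any of these 5 probe sets in either direction therefore lay outside its interval. That does not extend to other scalings or probe sets. With hybridization control centring Map2k1 differed by 0.48 (SE 0.35). The dimmest Nras probe set, described below, had a log2 interval of 0.52 to 1.66, which holds a 2-fold rise. In absolute size the differences ranked between the 1.40th percentile (Araf) and the 38.3rd percentile (Map2k1) of all genes.

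Braf, the RAF kinase altered in these mice, was measured by 1 dim probe set at the 28.4th percentile of all levels. Its log2 level was 5.07, 4.73, 4.64 and 4.87 in Ca/Ca sarcomas 5, 3, 2 and 1, and 4.81 and 4.45 in Ca/+ sarcomas 1 and 2, with muscles at 4.50 (Ca/Ca) and 4.62 (Ca/+). The groups overlapped, since Ca/+ sarcoma 2 was the lowest of all arrays and the other 5 sarcomas lay above both muscles. The difference of 0.20 (SE 0.17) did not pass in limma (adjusted p = 0.439), nor in an exact two-sided permutation test over 28 splits (p = 0.25, smallest possible 0.0357). The position of the probe set relative to the altered exon was not analysed here, and its level does not check the genotype.

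Araf, the RAF kinase encoded on the X chromosome, had the smallest range of the 5. Its level was 7.13, 6.88, 6.88 and 6.98 in Ca/Ca sarcomas 5, 3, 2 and 1, and 7.14 and 6.97 in Ca/+ sarcomas 1 and 2, with muscles at 6.97 (Ca/Ca) and 7.01 (Ca/+). Sarcomas lay on both sides of the muscles, and the 8 values spanned 0.26. The difference was 0.01 (SE 0.12, limma adjusted p = 0.974).

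Map2k1, the kinase MEK1, had levels of 8.45, 8.38, 8.23 and 9.07 in Ca/Ca sarcomas 5, 3, 2 and 1, and 8.80 and 8.67 in Ca/+ sarcomas 1 and 2, with muscles at 8.35 (Ca/Ca) and 8.36 (Ca/+). Both Ca/+ sarcomas and Ca/Ca sarcoma 1 stood highest, and Ca/Ca sarcoma 2 lay below both muscles. The difference of 0.25 (SE 0.22) did not pass (limma adjusted p = 0.458). Map2k2, the kinase MEK2, had levels of 8.96, 8.53, 8.73 and 8.79 in Ca/Ca sarcomas 5, 3, 2 and 1, 8.95 and 8.82 in Ca/+ sarcomas 1 and 2, and 8.60 and 8.67 in the muscles. Only Ca/Ca sarcoma 3 was not above both muscles, and the difference of 0.17 (SE 0.14) did not pass (limma adjusted p = 0.446).

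**Figure D1:**
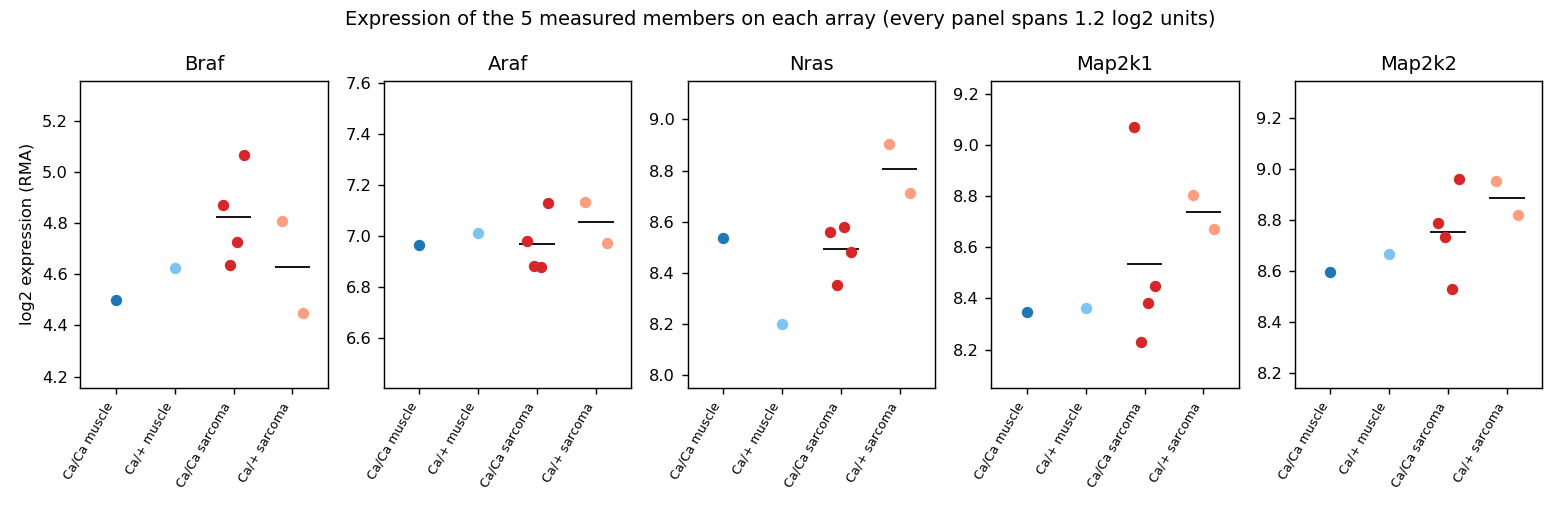
Log2 expression (vertical axis, every panel spanning the same range) of the 5 measured genes on each of 8 arrays, by tissue and Braf genotype; points are arrays and lines are means of groups with more than 1 array. The sarcoma points overlap or adjoin the muscle points in every panel, and Map2k1 in Ca/Ca sarcoma 1 (9.07) lies farthest from the other arrays of its gene.

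Nras, the only RAS gene measured here, had 3 probe sets that differed in size of change. The brightest, which stands for the gene in the test above, read 8.48, 8.58, 8.35 and 8.56 in Ca/Ca sarcomas 5, 3, 2 and 1, and 8.90 and 8.71 in Ca/+ sarcomas 1 and 2, with muscles at 8.54 (Ca/Ca) and 8.20 (Ca/+). Its Ca/Ca muscle lay among the sarcomas, and the difference of 0.23 (SE 0.17) did not pass (limma adjusted p = 0.372). The dimmest read 7.38, 8.17, 7.55 and 7.59 in Ca/Ca sarcomas 5, 3, 2 and 1, 8.18 and 7.77 in the Ca/+ sarcomas, and 6.91 and 6.46 in the muscles. All 6 sarcomas lay above both muscles, and this probe set rose by 1.09 (SE 0.25, adjusted p = 0.0144 over all probe sets, limma; exact permutation p = 0.0357, the smallest that 28 splits allow). It lost that call without the Ca/+ muscle (0.87, limma adjusted p = 0.157). The third was also higher in all 6 sarcomas, by 0.34 (SE 0.15), and did not pass (limma adjusted p = 0.142).

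The brightest and the dimmest Nras probe sets were designed from the same transcript accession, and the positions of their probes on the transcript are not given in the sources used here. With the mean of the 3 probe sets as the gene's value, Nras rose by 0.55 (limma adjusted p = 0.044). The second Map2k2 probe set averaged 7.09 ± 0.16 over the sarcomas (SD, n = 6) against 7.18 ± 0.02 over the muscles (SD, n = 2), a difference of -0.09 (SE 0.14, limma adjusted p = 0.694) against 0.17 for the brighter one. Braf, Araf and Map2k1 had 1 probe set each.

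**Figure D2:**
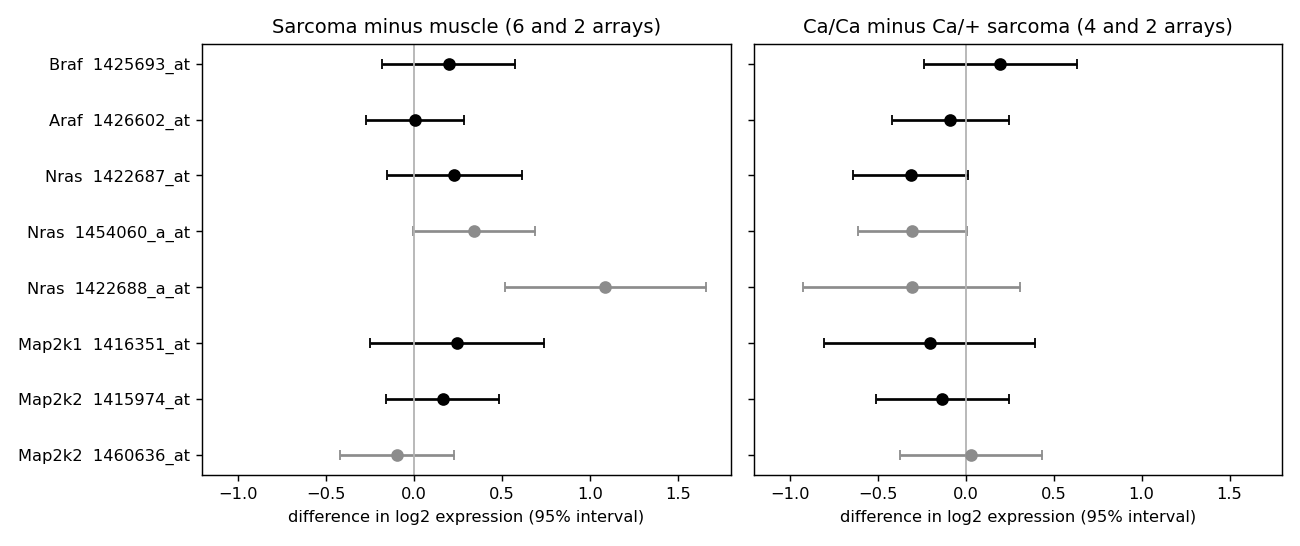
Difference in log2 expression with its 95% interval from limma for all 8 probe sets of the 5 genes, sarcoma minus muscle on the left and Ca/Ca minus Ca/+ sarcoma on the right; black points are the probe sets used for the gene and grey points the others. In the left panel the dimmest Nras probe set (1.09) is the only one whose interval excludes 0, and in the right panel every interval includes 0.

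The start-site windows of these genes (RefSeq, build GRCm38.p6, 300 bases across the start) were found for all 5 of them. The Araf window (chrX:20848293-20848592) and the Braf window lie at starts inside the annotated genes, not at their outer ends. The TATA box (TATAAA), present in 13.6% of 32851 such windows on either strand, and the ETS core CCGGAAG, present in 8.86%, were found in none of the 5. The GC box (GGGCGG on either strand), in 35.7% of all windows, was found once in Braf, 3 times in Nras (the first 2 overlap), 4 times in Map2k1, 2 times in Map2k2 and not in Araf. The CCAAT box (CCAAT on either strand), in 37.4% of all windows, was found 3 times in Araf and 2 times in Map2k1. GC content was 65% in Braf, 52% in Araf, 52.3% in Nras, 69% in Map2k1 and 60.7% in Map2k2, with a median of 52.7% over all windows. Such matches describe letters and not bound factors. The windows of 3 genes, a RAF, a RAS and a MEK gene, are shown 5′ to 3′ on the gene's strand with GC and CCAAT boxes in capitals: Braf, the altered gene (chr6:39725414-39725713, minus strand), Nras, whose probe sets differ (chr3:103058035-103058334, plus strand), and Map2k1, the most GC-rich (chr9:64253556-64253855, minus strand).
Braf: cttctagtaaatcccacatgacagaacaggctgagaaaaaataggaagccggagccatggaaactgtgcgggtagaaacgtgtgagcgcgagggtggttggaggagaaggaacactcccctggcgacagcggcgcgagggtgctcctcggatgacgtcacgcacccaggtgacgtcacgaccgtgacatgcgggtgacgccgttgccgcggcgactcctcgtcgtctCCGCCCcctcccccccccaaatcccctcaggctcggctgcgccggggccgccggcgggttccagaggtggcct
Nras: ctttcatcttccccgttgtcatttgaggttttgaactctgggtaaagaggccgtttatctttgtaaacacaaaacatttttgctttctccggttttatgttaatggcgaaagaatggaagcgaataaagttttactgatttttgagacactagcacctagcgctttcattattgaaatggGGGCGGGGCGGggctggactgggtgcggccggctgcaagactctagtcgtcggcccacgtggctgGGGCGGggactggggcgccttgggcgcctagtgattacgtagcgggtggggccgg
Map2k1: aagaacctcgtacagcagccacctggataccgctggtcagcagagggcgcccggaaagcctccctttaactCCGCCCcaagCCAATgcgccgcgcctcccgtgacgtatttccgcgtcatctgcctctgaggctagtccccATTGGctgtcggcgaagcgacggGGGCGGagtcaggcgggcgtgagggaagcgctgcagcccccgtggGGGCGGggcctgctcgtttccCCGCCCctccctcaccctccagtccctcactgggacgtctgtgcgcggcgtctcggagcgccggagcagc

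Between Ca/Ca and Ca/+ sarcomas none of the 5 genes passed, and 0% of all genes did (0 of 12393 in limma, with 971 at an unadjusted p under 0.05, none of them one of the 5). Braf was 4.83 ± 0.19 (SD, n = 4) in Ca/Ca and 4.63 ± 0.26 (SD, n = 2) in Ca/+ sarcomas, a difference of 0.20 (SE 0.18, limma adjusted p = 0.782). The groups overlapped, as Ca/+ sarcoma 1 lay above 2 of the 4 Ca/Ca sarcomas. The interval of this difference ran from 0.843-fold to 1.56-fold. Nras was lower in Ca/Ca sarcomas on all 3 probe sets, by 0.31, 0.31 and 0.30, and on the brightest all 4 Ca/Ca sarcomas lay below both Ca/+ sarcomas. That difference (-0.31, SE 0.14) had an adjusted p of 0.641 in limma, and the exact permutation p of 0.0667 is the smallest that 15 splits allow. Araf (-0.09), Map2k1 (-0.20) and Map2k2 (-0.13) did not pass either, at limma adjusted p from 0.834 to 0.881. Beside these values, the cell division genes had list means of 6.47 to 7.96 in the 4 Ca/Ca and of 8.47 and 8.62 in the Ca/+ sarcomas. Their part in the Nras difference was not tested.

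Whether the tissue difference depended on genotype was tested with the interaction term, in which a genotype's single muscle takes its error from the spread of the sarcomas. None of the 5 genes passed, and 0.00807% of all genes did. The term for Nras was -0.65 (SE 0.26, unadjusted p = 0.0469, limma adjusted p = 0.684). Behind it stand a Ca/Ca muscle of 8.54 among Ca/Ca sarcomas of 8.35 to 8.58, and a Ca/+ muscle of 8.20 below Ca/+ sarcomas of 8.71 and 8.90. The other probe sets of Nras gave -0.75 and -0.49. The terms for Braf (0.32), Map2k1 (-0.19), Map2k2 (-0.06) and Araf (-0.04) had limma adjusted p from 0.926 to 0.989.

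Paralogs were also compared within arrays, since a log2 ratio within an array does not move when whole arrays are centred. Only changes of such a ratio can be read, because the probe sets differ in brightness. Each gene was represented by its brightest probe set, so the ratio with Map2k2 does not use the second Map2k2 probe set. Braf minus Araf was -2.06, -2.15, -2.25 and -2.11 in Ca/Ca sarcomas 5, 3, 2 and 1, and -2.33 and -2.53 in Ca/+ sarcomas 1 and 2, with muscles at -2.47 (Ca/Ca) and -2.39 (Ca/+). The 4 Ca/Ca sarcomas had the highest ratios of the 8 arrays, above both Ca/+ sarcomas and both muscles. The ratio was 0.28 higher in Ca/Ca than in Ca/+ sarcomas (exact two-sided permutation p = 0.0667, the smallest that 15 splits allow, and 0.267 after Benjamini-Hochberg over the 4 ratio comparisons). Between sarcoma and muscle it differed by 0.19 (exact permutation p = 0.214, adjusted 0.429). Scalings other than centring of whole arrays can move such a ratio, and they were not run on it. With cyclic loess the tissue differences were 0.29 for Braf and -0.13 for Araf. With quantile normalization they were 0.27 and -0.037, against 0.20 and 0.01 in the main fit. Map2k1 minus Map2k2 differed by 0.08 between sarcoma and muscle (exact permutation p = 0.786) and by -0.07 between genotypes (exact permutation p = 1).

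**Figure D3:**
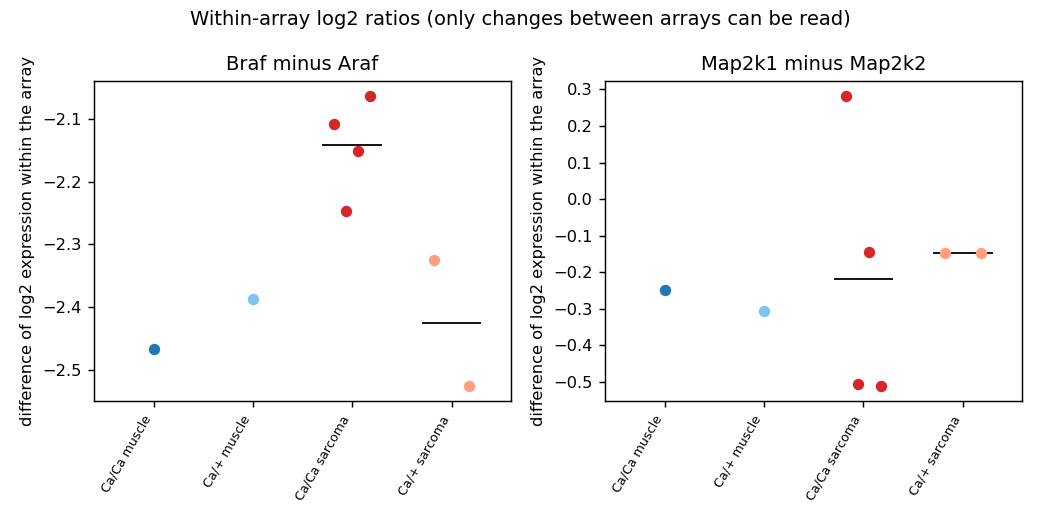
Difference of log2 expression within each array (vertical axis) for Braf minus Araf on the left and Map2k1 minus Map2k2 on the right, by tissue and Braf genotype; points are arrays and lines are means of groups with more than 1 array. On the left the 4 Ca/Ca sarcomas (-2.25 to -2.06) lie above the other 4 arrays, and on the right Ca/Ca sarcoma 1 (0.28) stands above the rest.

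Among the 6 sarcomas the SDs of the members were 0.11 for Araf, 0.16 for Map2k2, 0.19 for Nras, 0.21 for Braf and 0.31 for Map2k1, with a median of 0.24 over all genes. Araf lay at the 8.02nd and Map2k1 at the 64.4th percentile of sarcoma SDs. Of 10 pairs of members compared over the 6 sarcomas, Araf and Map2k2 had the highest correlation (Pearson's r = 0.902, permutation p = 0.0111, Benjamini-Hochberg 0.111; Spearman's rho = 0.886, permutation p = 0.0333). Without the 2 sarcomas farthest from the median of Araf, r was 0.778. The other 9 pairs had r from -0.14 to 0.59 and permutation p of 0.207 or more. With 2 sarcomas left out by the same rule the order turned, with r of 0.979 for Braf and Map2k1 and 0.894 for Araf and Map2k1, each over the remaining 4 sarcomas. All pairs share their arrays and normalization.

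By likeness over the 8 arrays (the smallest root mean square difference after centring each gene on its mean), the nearest genes to Braf were Cldn14 (0.044) and Adam26a (0.073), against a spread of Braf itself of 0.19. Adam26a read 2.30 to 2.95 and Cldn14 3.54 to 4.28, levels that lie within or close to those of the olfactory receptor genes. The nearest genes were Smad4 (0.038) and H2al2a (0.045) for Araf, Rnf25 (0.075) and Ppp1cc (0.077) for Nras, Tmppe (0.081) and the RAS-related gene Rras2 (0.116) for Map2k1, and Fbxo38 (0.048) and Prpf6 (0.049) for Map2k2. H2al2a read 2.29 to 2.60, below the median of the olfactory receptor genes.

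Lists of pathway genes around these 5 were read against the shares over all genes. The lists were chosen with earlier results of these data known, so their counts are not an independent test. The shares also depend on brightness: without the dimmest 50% of genes, 1422 of 6196 rose and 884 fell. The first list below was bright, with means of 8.73 to 8.90 in the sarcomas and 8.04 to 8.29 in the muscles. Small GTPases related to RAS rose: of 9 measured genes on that list, which held further cascade genes and members of the RAP and RAL families, 6 rose, 0 fell and 3 did not pass, with a median difference of 0.80, while 13.1% of all genes rose and 13.2% fell. Rap2a (1.25, SE 0.22, limma adjusted p = 0.00429) and Rap2b (1.06, SE 0.26, adjusted p = 0.0188) rose most, while the second Rap2a probe set (0.24, limma adjusted p = 0.584) and 1 of the 4 of Rap2b (0.10, adjusted p = 0.663) did not pass. Rras, a close relative of the RAS genes, differed by -0.10 and did not pass. Mras, also RAS-related, rose by 0.85 (SE 0.22, limma adjusted p = 0.0249 over all probe sets). Rras2, another, differed by 0.37 on its brighter probe set, which did not pass, and by 1.04 on the other, which did (SE 0.32, limma adjusted p = 0.0441). The direction held under all 6 scalings, and the count was 1 without the Ca/+ muscle, 3 under housekeeping centring and 1 under ribosomal protein centring.

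Scaffold and regulator genes of RAF had 10 up and 3 down of 27, with a median of 0.40, against 13.1% up and 13.2% down over all genes. The share that fell was thus no higher than over all genes. Without the dimmest 50% of genes, 1422 of 6196 rose and 884 fell. Ksr1, a scaffold that holds RAF, MEK and ERK together, fell by 2.51 (SE 0.19, limma adjusted p = 6.58e-05). It read 8.63 and 8.44 in the Ca/Ca and Ca/+ muscles and 5.80, 5.89, 6.39 and 6.07 in Ca/Ca sarcomas 5, 3, 2 and 1, with 5.79 and 6.19 in the Ca/+ sarcomas. No sarcoma came within 2 log2 units of a muscle, and the second Ksr1 probe set also fell, by 1.29 (adjusted p = 0.00113). Arrb1, an arrestin, fell by 1.14 (SE 0.21, limma adjusted p = 0.00553), a call lost without the Ca/+ muscle (adjusted p = 0.0535). Hsp90aa1, the chaperone on which RAF kinases depend, rose by 1.68 (SE 0.14, limma adjusted p = 0.000133), from 9.28 and 9.23 in the muscles to between 10.73 and 11.20 in the sarcomas. Ywhaz, a 14-3-3 protein that binds phosphorylated RAF, rose by 1.22 (SE 0.24, limma adjusted p = 0.00742) and lost its call without the Ca/+ muscle (0.75, adjusted p = 0.0726). Of its 7 probe sets 5 passed, and the lowest gave 0.17 (limma adjusted p = 0.713). Without that muscle 2 genes of the list rose and 1 fell. The counts up and down were 4 and 3 with cyclic loess, 3 and 3 with housekeeping, 2 and 3 with ribosomal protein and 4 and 2 with hybridization control centring.

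Further lists hold genes that load or unload RAS and genes of its lipid processing. For the adaptors and for lipid processing, calls were no more frequent than the 13.1% up and 13.2% down of all genes. Of 21 adaptors and exchange factors 2 rose and 2 fell (median -0.16). Housekeeping and ribosomal protein centring gave 1 up with 6 and 8 down, and hybridization control centring gave 2 up, 0 down and a median of 0.08. Dok1, a docking protein, rose by 2.26 (SE 0.37, limma adjusted p = 0.0034), and Shc1, an adaptor of receptor tyrosine kinases, by 0.86 (limma adjusted p = 0.0331). Rapgef1 fell by 0.93 (limma adjusted p = 0.0243), and its second probe set did not pass (-0.24, adjusted p = 0.311). Frs3 fell by 0.37 (limma adjusted p = 0.0496), a call lost in 16 of 21 alternatives and without any 1 of the 8 arrays. The call of Shc1 was lost in 10 of 22 alternatives, among them cyclic loess and housekeeping, ribosomal protein and hybridization control centring. The other Shc1 probe set rose by 1.28 (SE 0.14, limma adjusted p = 0.000453). The exchange factor gene Sos1 (0.49) and the phosphatase gene Ptpn11 (-0.16) did not pass. Grb2, the partner of Sos1, differed by 0.02 on its brighter probe set, which did not pass, and by 0.81 on the other, which did (SE 0.14, limma adjusted p = 0.00479). Of 12 genes for GTPase-activating proteins and their relatives 3 rose and 1 fell: Iqgap2 (1.62) and Rasa1 (1.39, p120 RasGAP) rose most, Dab2ip fell by 1.41, and Nf1 (0.22) did not pass. The call of Rasa1 was lost in 10 of 22 alternatives, among them cyclic loess, housekeeping and ribosomal protein centring and 4 of the 8 fits without 1 array. Its other probe sets rose by 1.60 and 1.99 (limma adjusted p = 0.0178 and 0.0163). Of 11 genes of RAS lipid processing 1 rose, Fdps (0.84), and 1 fell, Lypla1 (by 0.91), and the second Fdps probe set (0.14) did not pass. Without the Ca/+ muscle 1 of the adaptors rose (Dok1 kept its call), and Shc1, Rapgef1, Frs3, Iqgap2, Rasa1, Fdps and Lypla1 lost theirs.

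Downstream of ERK, 9 of 18 measured feedback and output genes rose, 0 fell and 9 did not pass. Over all genes 13.1% rose and 13.2% fell. The list median of 1.12 was positive under all 6 scalings. Dusp1 (-1.01), Egr1 (-0.41) and Spry1 (-0.36) were lower in sarcoma and did not pass. Fosl1, an AP-1 subunit, rose by 2.79 (SE 0.48, limma adjusted p = 0.00396) and Ccnd1, cyclin D1, by 2.65 (SE 0.62, limma adjusted p = 0.015). Fosl1 read 8.14 to 9.73 in the sarcomas, with muscles at 6.84 (Ca/Ca) and 5.19 (Ca/+). Ccnd1 read 10.76 to 12.02 in the sarcomas, with muscles at 10.09 (Ca/Ca) and 7.37 (Ca/+). In both genes all 6 sarcomas lay above both muscles, and the muscles lay farther apart than the sarcomas. The counts up and down were 7 and 1 with housekeeping and 6 and 1 with ribosomal protein centring. Without the Ca/+ muscle 3 of the 18 rose, Ccnd1 lost its call (1.29, adjusted p = 0.107) and Fosl1 kept it (1.97, adjusted p = 0.0473). Of 13 genes for kinases and other proteins that ERK acts on, 2 rose and 3 fell, against the same 13.1% and 13.2% of all genes. Myc (1.24) and Bcl2l11 (1.06) rose. The kinase gene Mknk2 (by 1.67, SE 0.18, limma adjusted p = 0.000468) and Ets2 (by 1.10) were among those that fell. Without the Ca/+ muscle Myc and Bcl2l11 lost their calls, and Mknk2 and Ets2 kept theirs.

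Other MAP kinase modules had 3 genes that rose and 4 that fell of 27, with a median of -0.08, against 13.1% up and 13.2% down over all genes. Mapk12, the p38 kinase of skeletal muscle, fell by 2.71 (SE 0.39, limma adjusted p = 0.00191), from 9.20 and 9.05 in the muscles to between 5.53 and 7.15 in the sarcomas. Mapk6, the atypical kinase ERK3, rose by 2.31 (SE 0.41, limma adjusted p = 0.00467), from 8.65 and 7.43 to between 9.84 and 10.97. Mapk13, another p38 kinase, rose by 2.14 and Map3k4 fell by 0.81 (limma adjusted p = 0.0276 and 0.0472). Map3k4 lost its call in 12 of 21 alternatives, 7 of them fits without 1 array, and its second probe set did not pass (-0.53, limma adjusted p = 0.154). Mapk13 lost its call in 5 of 22, among them the fits without the Ca/Ca muscle and without Ca/+ sarcoma 2. Without the Ca/+ muscle Mapk12 kept its call and the other 3 lost theirs. Between Ca/Ca and Ca/+ sarcomas and in the interaction, 0 of the genes on these 8 lists passed.

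**Figure D4:**
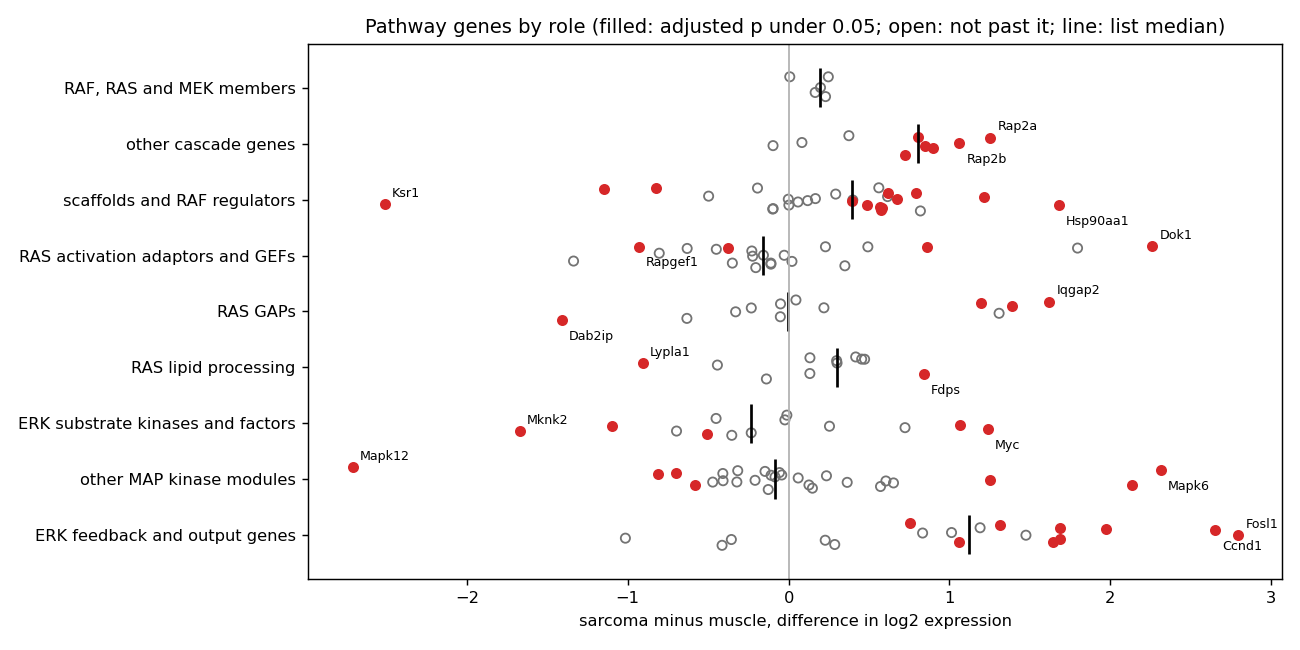
Sarcoma minus muscle difference in log2 expression (horizontal axis) for the 5 measured members and the genes of 8 pathway lists; filled points passed an adjusted p of 0.05 in limma, open points did not, and black lines are list medians. The 5 members lie between 0.01 and 0.25 with none filled, while Ksr1 and Mapk12 lie lowest and Fosl1 and Ccnd1 highest.

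Markers of other cell types were read in the same comparison, against 13.1% up and 13.2% down over all genes. Endothelial markers fell in 7 of 10 cases, with list means of 6.11 to 7.04 in sarcomas and 8.07 and 8.27 in muscles, and adipocyte markers in 7 of 8, with 4.71 to 6.63 and 8.57 to 10.76. Cell division genes rose in 7 of 11, with list means of 6.47 to 8.62 in sarcomas and 5.32 and 6.26 in muscles, and in 0 of 11 without the Ca/+ muscle. Leukocyte markers rose in 1 of 13 (8.63 to 9.89 and 8.60 to 9.43), and of 12 fibroblast markers 2 rose and 1 fell (10.07 to 10.54 and 9.92 to 10.77). None of these lists had a gene whose mean in either tissue lay under the 95th percentile of the olfactory receptor genes. The part of cell composition in the differences above was not tested.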

How the data were processed

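Biotin-labelled cRNA from total RNA of 6 sarcomas and 2 muscles was read on Affymetrix arrays. The deposited values are log2 expression per probe set, made by the authors with RMA per the submitters' processing notes (background correction, a shared distribution and probe summary); its version is not given in the sources used here. RMA removes differences in total RNA. Of 22690 probe sets, 64 were controls, 20380 had 1 gene symbol, 691 several and 1555 none listed. The probe set with the highest mean over 8 arrays stood for each of 12393 genes. Groups came from the titles. Whether each array was a different mouse is not stated, and the p-values then reflect only sample-to-sample spread, which may be technical. The planned ratio of Hras to Nras was not analysed here. No array was a copy of another (at most 32 equal values).

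Tests used limma 3.58.1 in R 4.3.3 (lmFit, eBayes, Benjamini-Hochberg over all genes, threshold 0.05), all 8 arrays for tissue, the 6 sarcomas for genotype and 4 groups for the interaction. Exact permutation tests and figures used Python 3.11.15 and matplotlib 3.10.9. The procedure was tested on simulated data. The members and lists were chosen with earlier results of these data known. Named genes are the members, and per list and comparison the 2 highest and 2 lowest differences that passed. The 2 genes of nearest pattern per member were also named. Rras, Rras2, Mras, Sos1, Grb2, Ptpn11, Nf1, Dusp1, Egr1 and Spry1 were named after their values were seen. Alternatives covered probe sets, 6 scalings, filters, array weights, each array left out and each genotype alone. Titles of the sarcomas share tumour numbers 1 and 2, which no label ties to a shared animal or day. Batches and scan dates are not given in the sources used here.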

Additional observations from a re-analysis of the deposited data

How the results depend on the processing

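Some scalings moved the median sarcoma minus muscle difference of all genes by over 0.1: to -0.24 with housekeeping, -0.29 with ribosomal protein and 0.26 with hybridization control centring, from 0.03. The distance of a gene from that median does not move with such centring. It was 0.17 for Braf, -0.02 for Araf, 0.20 for Nras, 0.22 for Map2k1 and 0.14 for Map2k2. The median itself was 0.12 without the dimmest 25% of genes and 0.20 without the dimmest 50%, so these distances depend on the genes it is taken over. In raw values housekeeping and ribosomal protein centring turned the sign of Braf (-0.069 and -0.12), Araf (-0.26 and -0.31), Nras (-0.038 and -0.091), Map2k1 (-0.020 and -0.074) and Map2k2 (-0.10 and -0.16), none past the threshold. Cyclic loess turned Map2k2 (-0.067) and Araf (-0.13), and Araf also turned with median centring (-0.00068), quantile normalization (-0.037) and array weights (-0.017). With Ca/Ca arrays only Nras was -0.044. Nras passed with the mean of its probe sets (0.55), and no other member passed under any alternative of the 2 comparisons. Without 1 array the tissue differences were 0.14 to 0.26 for Braf, -0.020 to 0.031 for Araf, 0.060 to 0.40 for Nras, 0.15 to 0.32 for Map2k1 and 0.13 to 0.22 for Map2k2. The dimmest Nras probe set, examined after the data were seen, also lost its call under ribosomal protein centring (0.77, adjusted p = 0.0538), with Ca/Ca arrays only (0.76, 0.273) and with Ca/+ arrays only (1.51, 0.0594). The second Map2k2 probe set turned to 0.14 with hybridization controls. Braf minus Araf between tissues was 0.25 without Ca/+ sarcoma 2, with an unadjusted exact permutation p of 0.0476, the smallest that this split allows, in a range of 0.15 to 0.25 without 1 array. Its genotype difference ranged from 0.18 to 0.38. Map2k1 minus Map2k2 ranged from -0.014 to 0.14 between tissues and from -0.24 to 0.026 between genotypes, also without 1 array. Those ranges use the brighter Map2k2 probe set and do not cover the choice of probe set. With the mean of its probe sets Map2k2 differed by 0.036 between tissues, against 0.25 for Map2k1.

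Between genotypes Braf turned to -0.0042 with hybridization controls and Araf to 0.040 with housekeeping centring. Tumour number as a replicate block, where the numbers pair nothing in the labels, gave 0.13 for Braf and -0.35 for Nras, and 0 genes called. The interaction turned sign for Araf (0.053, 0.087, 0.031 and 0.065) and Map2k2 (0.033, 0.0096, 0.045 and 0.045) under median, quantile, cyclic loess and housekeeping scaling. Counts of called genes were 3256 between tissues (1626 higher, 1630 lower), 1195 without the Ca/+ muscle, 601 with Ca/Ca and 1287 with Ca/+ arrays only, and 1195 to 3451 without 1 array. The split was 856 and 2746 with housekeeping, 598 and 3110 with ribosomal protein, 1157 and 1830 with cyclic loess and 1407 and 820 with hybridization control scaling. Between genotypes 1 gene was called with hybridization controls and 1 without Ca/+ sarcoma 1, so 0 to 1 without 1 array. The interaction called 6 with hybridization controls, 17 with trend and robust eBayes, and 0 without the dimmest 25% or 50% of genes. The number of arrays limits the precision, with 2 muscles and 2 Ca/+ sarcomas.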
